A study of Homo sapiens with 24 samples.

Results

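Puromycin changed the background RNA of a pull-down experiment, meaning the RNA that stayed on agarose beads carrying no antibody fragment, here called uncoupled beads. The cells were HCT116, a human colorectal carcinoma line in which CRISPR/Cas9 editing had put GFP on endogenous RPAP3, and the same editing was present in both groups compared. The puromycin group was given 100 µg/mL for 30 min and has 2 libraries, and the untreated group has 2 libraries, both from lysates passed over uncoupled beads. These 4 libraries, of 24 in the series, were chosen by their labels alone. Of 28307 genes in the count table, 15202 had enough reads to be tested in the 8 libraries of the RPAP3 line, and all of them enter the comparison. Other comparisons are used only to show where the change differed. They are the same treatment on GFP-binding beads in the RPAP3 line and on uncoupled beads in a second HCT116 line with GFP on endogenous RUVBL1, each with 2 puromycin and 2 untreated libraries. The labels do not say whether a line was 1 clone or whether replicates came from separate cultures, and the error behind each p-value is that between libraries, which may be technical only.

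Puromycin resembles the end of an aminoacyl-tRNA, is joined to the growing protein and ends its synthesis, so the nascent chain leaves the ribosome and the ribosome is freed from the mRNA. mRNAs of secreted, membrane and lysosomal proteins are held at the endoplasmic reticulum (ER) by the nascent chains they encode, while mRNAs of most cytosolic proteins are translated in the cytosol and long non-coding RNAs are mostly not translated. RPAP3 is a scaffold of the R2TP co-chaperone complex, which also holds the ATPases RUVBL1 and RUVBL2 and helps HSP90 to assemble large protein complexes.

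Total counts were 47204370 and 30844089 in the puromycin libraries A and B and 34871813 and 50394245 in the untreated libraries A and B, so depth did not order the groups. Across genes, log2 levels of replicates correlated at 0.983 after puromycin and 0.982 untreated, and at 0.959 to 0.966 between the groups. Replicates differed by more than counting noise, the chi-square divided by its degrees of freedom being 21.8 after puromycin and 30 untreated. Reads of protein-coding genes made up 95.7% and 96.1% of the puromycin libraries, against 94.8% and 93.8% of the untreated ones. Long non-coding RNAs took 0.707% and 1.01% after puromycin, against 1.12% and 1.38% untreated. No outside RNA was added as a standard, so every change below is a change in share of the library, and less RNA on the beads in total would not show. As in any bulk sample, fewer cells of a kind and less RNA per cell cannot be told apart.

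Of the 15202 genes tested, 6532 (43.0%) changed after puromycin at an adjusted p under 0.05 by the edgeR quasi-likelihood test, 3577 (23.5%) higher and 2955 (19.4%) lower. Levels are given as CPM, counts scaled by library size and TMM factor, and each change is a log2 ratio of puromycin to untreated with a standard error pooled over the 8 libraries. The increases were larger than the decreases. Among called genes the median log2 change was 0.87 for those higher and -0.61 for those lower, and 1426 were at least 2-fold higher against 195 at least 2-fold lower. The median of all tested genes was -0.06, and the quartiles were -0.48 and 0.50. The puromycin libraries both lay above both untreated libraries for 34.4% of all tested genes and both below for 37.0%. They did so for all 3577 genes called higher and for 2954 of the 2955 called lower, the exception being the snoRNA SNORD51, which had reads in 1 library only. How the calls split depended on scaling. Higher genes were 54.8% of calls with TMM, 47.6% with total counts and 39.9% with upper-quartile scaling, which put the median of all genes at -0.14 and -0.23. A change of scaling shifts all genes by nearly the same amount, so it can hardly move a list against that median. Read in this way, lysosomal genes stood at 1.71 and ribosomal proteins at -0.31 under each of the 3.

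Detection followed level. Of genes averaging under 1 CPM, 1.2% rose and 1.7% fell, while of those at 100 CPM or more 37.8% rose and 31.3% fell.

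**Figure D1:**
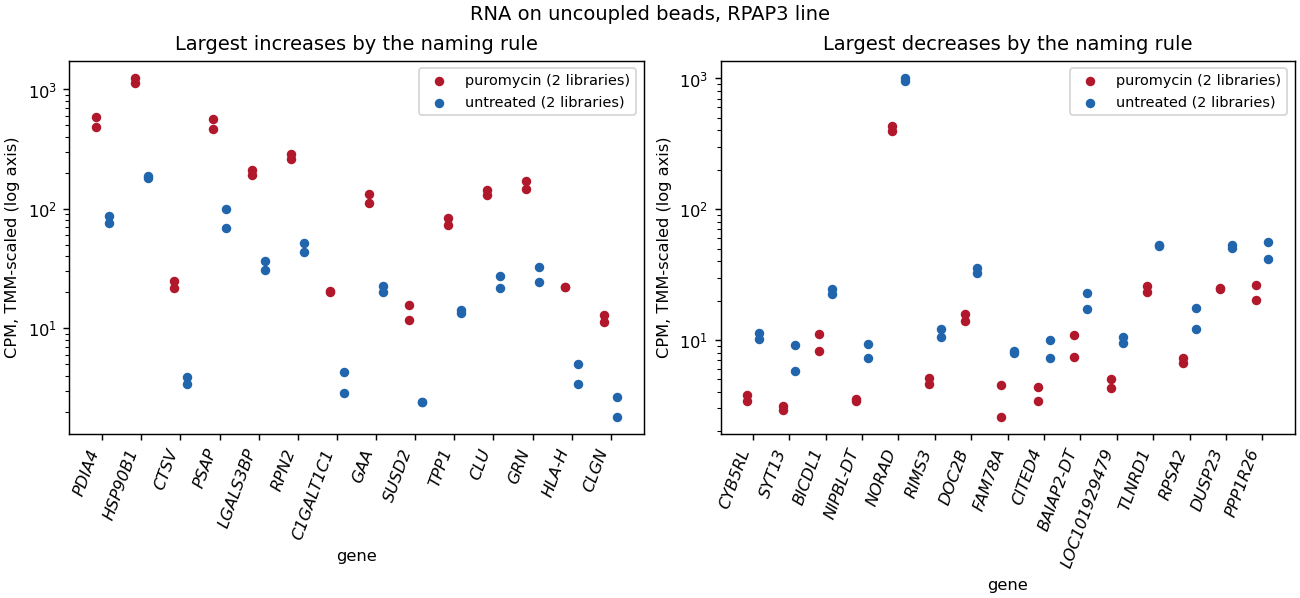
Level of each gene in the puromycin libraries (red) and untreated libraries (blue) on a log axis in TMM-scaled CPM, for the called genes of at least 5 CPM with the largest increases (left) and decreases (right). Each point is 1 library, and genes were chosen only where both red points lie on one side of both blue points.

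Among genes of at least 5 CPM the leading increases were those of PDIA4 and HSP90B1, mRNAs for ER chaperones. PDIA4 stood at 583 and 485 CPM after puromycin, against 86.4 and 76.4 CPM untreated, a rise of 2.71 ± 0.15 on the log2 scale (adjusted p = 6.17e-11). PDIA4 (gene chr7:149003051-149028505) encodes a protein disulfide isomerase that forms and rearranges disulfide bonds in the ER. HSP90B1 stood at 1247 and 1140.3 CPM after puromycin, against 182 and 189 CPM untreated (log2 change 2.69 ± 0.14, adjusted p = 6.17e-11). For these 2 genes both puromycin libraries lay far above both untreated libraries. HSP90B1 (gene chr12:103930410-103947926), also called GRP94, is the HSP90 of the ER. HSPA5, or BiP, the HSP70 of the ER, had 777 and 654 CPM after puromycin, against 156 and 149.6 CPM untreated (log2 change 2.23 ± 0.15, adjusted p = 6.89e-10). PDIA3, which works with calnexin and calreticulin on glycoproteins, had 320.2 and 275 CPM after puromycin, against 70.3 and 53.8 CPM untreated (log2 change 2.26 ± 0.16, adjusted p = 1.41e-09). Of 20 ER chaperones and folding enzymes tested, 16 rose and 1 fell, with a median log2 change of 1.36. That median was 1.41 above the median of all genes, a distance that the choice among the 3 scalings can hardly change. The member that fell was SDF2L1, at -0.36, and its call was lost with DESeq2 and without the low-count filter. The summed level of the list was 6757 and 5862 CPM after puromycin, against 1998 and 1771 CPM untreated.

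Some genes of the list share a promoter element, the ER stress response element, which the transcription factor ATF6 binds together with NF-Y. The stretches below, from RefSeq promoters of GRCh38.p14, are given to show that sequence in 4 members that rose. One match a gene is shown. Capitals mark the element, searched on either strand as CCAAT, any 9 bases and CCACG, with overlapping matches allowed. All 4 are written 5′ to 3′ along the strand of the gene, and in HSP90B1 and CALR the element lies on the opposite strand, so that its reverse complement is printed.
HSPA5 (chr9:125241371-125241430, minus strand, 87 to 28 bases before the start): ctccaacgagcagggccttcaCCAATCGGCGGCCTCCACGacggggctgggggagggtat
HSP90B1 (chr12:103930300-103930359, plus strand, 110 to 51 bases before the start): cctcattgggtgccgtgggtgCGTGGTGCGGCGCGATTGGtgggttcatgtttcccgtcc
CALR (chr19:12938363-12938422, plus strand, 246 to 187 bases before the start): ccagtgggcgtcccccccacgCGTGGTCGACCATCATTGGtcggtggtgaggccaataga
CANX (chr5:179698757-179698816, plus strand, 172 to 113 bases before the start): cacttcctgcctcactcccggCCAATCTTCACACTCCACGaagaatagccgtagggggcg

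The window searched ran from 250 bases before to 50 after each annotated start. The element was in the window of 7 of the 19 list members that had one, or 36.8%. It was in 0.0916% of the 27305 genes with such a window and in 0.154% of the 11721 tested genes among them. All 7 members with the element rose, at 2.69 for HSP90B1, 2.23 for HSPA5, 1.91 for CALR, 1.87 for PDIA6, 1.50 for CANX, 0.73 for XBP1 and 0.36 for CRELD2. Of the 12 members without it, 8 rose. Of all 18 tested genes that hold it, the 7 members included, 9 rose and 2 fell. Of all 15202 genes tested, 23.5% rose and 19.4% fell. A match to these letters is a description and not a site shown to be bound. Members named here and in the other lists beyond the 4 with the smallest p were chosen after their values were seen.

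Subunits of the machinery that takes proteins into the ER moved in both directions. This list, like 7 others marked below as added, was put together after the values were seen. Of 25 tested genes for the translocon, the oligosaccharyltransferase, the signal peptidase and the signal recognition particle receptor, 14 (56%) rose and 7 (28%) fell. The shares of all tested genes were 23.5% and 19.4%. RPN2, a subunit of the oligosaccharyltransferase that transfers the N-glycan to nascent chains, had 289 and 259.9 CPM after puromycin, against 52.1 and 43.8 CPM untreated (log2 change 2.52 ± 0.14, adjusted p = 6.46e-11). Its catalytic partners STT3A and STT3B rose by 2.15 and 1.30, and SRPRA, the receptor subunit that meets the signal recognition particle, rose by 1.65. Members that fell include SEC61G and SEC61B, subunits of the channel, and OST4 and DAD1, subunits of the oligosaccharyltransferase, with SEC61G at -0.81, SEC61B at -0.78, OST4 at -0.68 and DAD1 at -0.42. SEC61A1, which forms the channel pore, rose by 0.98. Without puromycin library B or untreated library B, 3 members fell.

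Most lysosomal mRNAs rose. Of 30 genes for lysosomal hydrolases and membrane proteins tested, 24 rose and 0 fell, with a median log2 change of 1.65, the highest of the lists fixed with the design. The counts were also 24 higher and 0 lower with upper-quartile scaling, total-count scaling and DESeq2. GAA, the acid alpha-glucosidase that breaks down glycogen, stood at 132 and 112 CPM after puromycin, against 22.6 and 20.3 CPM untreated (log2 change 2.51 ± 0.14, adjusted p = 6.46e-11). TPP1, a tripeptidyl peptidase, had 84.1 and 72.5 CPM after puromycin, against 13.5 and 14.2 CPM untreated (log2 change 2.50 ± 0.14, adjusted p = 6.46e-11). For GAA and TPP1 the puromycin libraries lay far above the untreated ones and the groups did not overlap. PSAP, the precursor of the saposins that activate sphingolipid hydrolases, stood at 566 and 465 CPM after puromycin, against 100.0 and 69.3 CPM untreated (log2 change 2.61 ± 0.17, adjusted p = 8.4e-10). CTSA, the protective carboxypeptidase of beta-galactosidase and neuraminidase, had 96.9 and 83.8 CPM after puromycin, against 19.2 and 16.1 CPM untreated (log2 change 2.36 ± 0.14, adjusted p = 1.19e-10). Those that did not pass the test were CD63 at -0.05, ASAH1 at 0.02, MAN2B1 at 0.06, CTSZ at 0.11, NPC2 at 0.38 and ARSA at 0.65.

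A second promoter element, the CLEAR core TCACGTGA bound by TFEB, was searched in the same windows and is its own reverse complement. It is shown in 2 of the lysosomal genes, with the core in capitals.
GAA (chr17:80101521-80101580, plus strand, the 60 bases before the start): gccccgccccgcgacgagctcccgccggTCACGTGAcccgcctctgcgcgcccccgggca
CTSA (chr20:45891275-45891334, plus strand, the 60 bases before the start): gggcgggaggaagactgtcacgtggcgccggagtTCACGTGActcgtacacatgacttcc

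The core was in 3 of the 18 lysosomal genes with a window, GAA, CTSA and LAMP1, or 16.7%, against 1.18% of all genes with a window and 2.09% of tested ones. All 3 rose, LAMP1 by 2.13, as did 11 of the 15 without the core. Of all 245 tested genes with the core, the 3 members included, 78 rose and 53 fell, beside 23.5% and 19.4% of all genes tested.

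Other mRNAs among the largest increases are named by size alone. CTSV, a lysosomal cysteine protease, had 24.7 and 21.6 CPM after puromycin, against 3.91 and 3.38 CPM untreated (log2 change 2.67 ± 0.19, adjusted p = 8.68e-10). LGALS3BP, a secreted glycoprotein that binds galectins, had 213 and 192 CPM after puromycin, against 36.4 and 30.6 CPM untreated (log2 change 2.60 ± 0.14, adjusted p = 6.17e-11). CLU, the secreted chaperone clusterin, had 144 and 129.6 CPM after puromycin, against 27.2 and 21.6 CPM untreated, a rise of 2.49 ± 0.14. GRN, the precursor of the granulins, had 172 and 146 CPM after puromycin, against 32.4 and 24.2 CPM untreated, a rise of 2.49 ± 0.17. C1GALT1C1, a chaperone of the galactosyltransferase that starts core 1 O-glycans, rose by 2.51 ± 0.23 and SUSD2, a membrane protein, by 2.50 ± 0.24. CLGN, an ER chaperone related to calnexin, rose by 2.42 ± 0.24 from a low level, with 11.2 and 12.8 CPM after puromycin, against 1.79 and 2.66 CPM untreated. HLA-H, a class I HLA pseudogene, was called higher at 2.42, but near-identical HLA genes could have shared its reads.

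**Figure D2:**
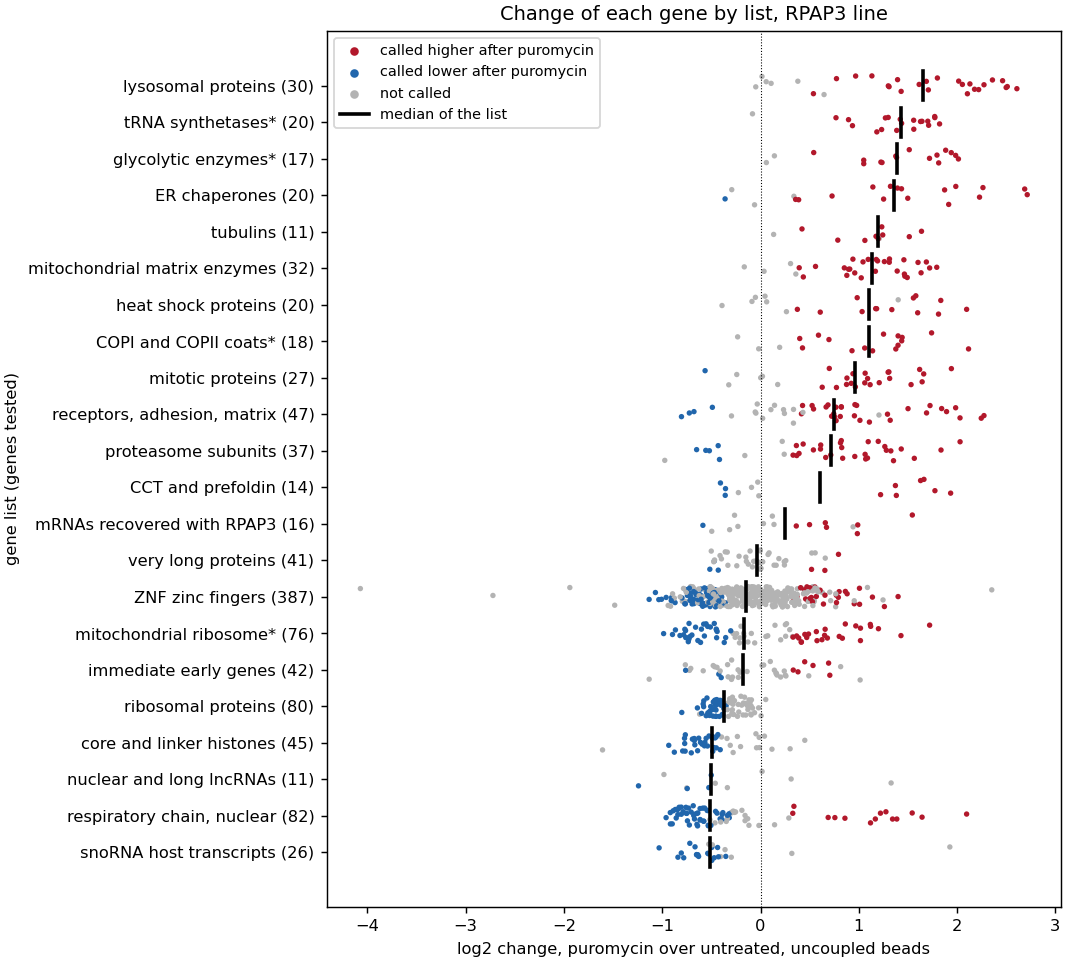
Log2 change after puromycin on uncoupled beads of the RPAP3 line for every tested gene of 22 lists, 1 point a gene, red for genes called higher, blue for genes called lower and grey for the rest, with a black bar at each list's median. Lists with an asterisk were added after the values were seen. Lysosomal genes and ER chaperones lie mostly right of 0, and ribosomal proteins, histones, respiratory chain subunits and snoRNA host transcripts mostly left of it.

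Cell-surface proteins shared the rise in part. Of 47 receptors, adhesion molecules and matrix proteins, 30 (63.8%) rose and 4 (8.51%) fell, beside 23.5% and 19.4% of all tested genes. Their median was 0.75. APP, the amyloid precursor protein, had 438 and 392 CPM after puromycin, against 87.6 and 84.2 CPM untreated (log2 change 2.27 ± 0.15, adjusted p = 4.83e-10), and its relative APLP2 rose by 2.25 ± 0.14. ITGB1, the beta subunit shared by many integrins, had 1010.0 and 881 CPM after puromycin, against 229.8 and 233 CPM untreated (log2 change 2.03 ± 0.15, adjusted p = 1.44e-09). EPCAM, an epithelial adhesion molecule, had 461 and 404 CPM after puromycin, against 115 and 104 CPM untreated (log2 change 1.99 ± 0.14, adjusted p = 7.21e-10). The members that fell were PLXNB1 at -0.80, IGF1R at -0.72, TGFBR2 at -0.68 and NOTCH1 at -0.49. Of 18 subunits of the COPI and COPII vesicle coats, cytosolic proteins that carry cargo between ER and Golgi and a list added after the values were seen, 15 rose and 0 fell, COPG1 by 2.12 and SEC23B by 1.74. Of 17 golgins and tethers, 8 rose and 1 fell, against 3 and 3 with upper-quartile scaling, and 3 or 4 rose without puromycin library A, puromycin library B or untreated library B. The proton pump of the lysosome, an added list of 21, had 10 (47.6%) higher and 7 (33.3%) lower, beside 23.5% and 19.4% of all tested genes. Its accessory glycoproteins ATP6AP1 and ATP6AP2 rose by 2.30 and 2.18, while ATP6V0C, the subunit of the membrane ring, fell by 0.61 on the log2 scale.

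mRNAs of mitochondrial proteins made on cytosolic ribosomes are given as 3 lists. Of 32 matrix enzymes, 28 rose and 0 fell, with a median of 1.13. DLD, the dihydrolipoamide dehydrogenase of the pyruvate and 2-oxoglutarate dehydrogenase complexes, had 215 and 199.7 CPM after puromycin, against 67.3 and 52.5 CPM untreated (log2 change 1.79 ± 0.14, adjusted p = 2.55e-09). PCCB, a subunit of propionyl-CoA carboxylase, had 73.2 and 68.1 CPM after puromycin, against 23.5 and 19.5 CPM untreated (log2 change 1.72 ± 0.15, adjusted p = 8.07e-09). FH, the fumarase of the citric acid cycle, had 64.7 and 58.3 CPM after puromycin, against 21.1 and 17.2 CPM untreated (log2 change 1.69 ± 0.14, adjusted p = 6.47e-09). The puromycin libraries lay above the untreated ones for all 3 genes. Nuclear-encoded subunits of the respiratory chain mostly fell. Of 82 tested, 50 fell and 14 rose, with a median of -0.51. The subunits that rose include SDHA, the flavoprotein of succinate dehydrogenase, at 261 and 206 CPM after puromycin, against 57.2 and 51.9 CPM untreated (log2 change 2.10 ± 0.14, adjusted p = 6.36e-10). NDUFS1, which carries iron-sulfur clusters of complex I, rose by 1.64 ± 0.13, UQCRC2, a core protein of complex III, by 1.54 ± 0.14, and the ATP synthase subunits ATP5F1A and ATP5F1B by 1.28 and 1.34. Those that fell include ATP5PF at -0.96, UQCRQ at -0.92, NDUFB7 at -0.92 and COX8A at -0.90. Of 76 mitochondrial ribosomal proteins, an added list, 25 (32.9%) rose and 31 (40.8%) fell, beside 23.5% and 19.4% of all tested genes. Among them were MRPS31 at 1.72 and MRPL23 at -0.99. Mitochondrially encoded transcripts had 0 rows in the table.

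Heat shock proteins rose, though not all. Of 20 heat shock proteins and co-chaperones, 13 rose and 0 fell, with a median of 1.10, and 1 fell under upper-quartile and total-count scaling. HSP90AA1, the inducible cytosolic HSP90, had 4929 and 4109 CPM after puromycin, against 1158 and 955 CPM untreated (log2 change 2.10 ± 0.16, adjusted p = 2.98e-09). STIP1, or HOP, which hands clients from HSP70 to HSP90, had 428 and 375 CPM after puromycin, against 122.9 and 102.6 CPM untreated (log2 change 1.83 ± 0.15, adjusted p = 3.82e-09). HSPD1, the mitochondrial chaperonin HSP60, had 1489 and 1326 CPM after puromycin, against 443 and 359.9 CPM untreated (log2 change 1.81 ± 0.17, adjusted p = 2.27e-08). HSPE1, its small partner HSP10, did not pass the test, at -0.39, nor did HSPB1 at -0.09 or DNAJB1 at -0.05. HSPA1A and HSPA1B, nearly identical HSP70 genes whose reads cannot be told apart with certainty, stood at 1.40 (not called) and 1.17 (called). The heat shock element, searched on either strand as GAA, any 2 bases, TTC, any 2 bases and GAA, was in 6 of the 19 members with a promoter window, or 31.6%, against 0.608% of all genes with one, and all 6 rose, as did 6 of the 13 without it. Of all 56 tested genes with the element, the 6 members included, 16 rose and 10 fell, beside 23.5% and 19.4% of all genes tested. In the chaperonin CCT with its helper prefoldin, 7 of 14 rose and 3 fell. The 7 that rose were CCT subunits, CCT5 with 879 and 757 CPM after puromycin, against 229 and 199.6 CPM untreated (log2 change 1.93 ± 0.14, adjusted p = 1.97e-09), and the 3 that fell were the prefoldins PFDN1, PFDN2 and PFDN5 at -0.36, -0.41 and -0.36. Tubulins, clients of CCT, rose in 9 of 11 cases, TUBB4B by 1.64 ± 0.15 and TUBA1A by 1.51 ± 0.15, although tubulin genes resemble each other and could have shared reads. In 26 genes of the actin cytoskeleton 10 (38.5%) rose and 8 (30.8%) fell, beside 23.5% and 19.4% of all tested genes. ACTN4, an actin crosslinker, rose by 1.51 ± 0.15 and MSN, which ties actin to the membrane, by 1.43 ± 0.14, while PFN1, the actin-binding profilin, fell by 0.68 and TMSB10 by 0.61 on the log2 scale.

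The rise was not limited to proteins that enter organelles. Of 20 cytosolic aminoacyl-tRNA synthetases, an added list, 19 rose and 0 fell, from KARS1 at 0.77 to AARS1 at 1.82, and QARS1 stood at -0.08. Of 17 glycolytic enzymes, also an added list, 15 rose and 0 fell, among them PGK1 at 2.01 and PKM at 1.99, while TPI1 at 0.06 and PGAM1 at 0.14 did not pass the test. Of 37 proteasome subunits, 28 rose and 5 fell. PSMD1, the largest subunit of the regulatory particle, had 161 and 149 CPM after puromycin, against 39.3 and 36.6 CPM untreated (log2 change 2.03 ± 0.13, adjusted p = 2.78e-10). PSMC2, one of its ATPases, had 126 and 119 CPM after puromycin, against 39.2 and 29.5 CPM untreated (log2 change 1.84 ± 0.15, adjusted p = 4.76e-09). The subunits that fell were PSMD9, PSMB9, PSMA7, PSMB6 and PSMB10, from -0.65 to -0.42. In translation initiation factor eIF3, 5 of 12 tested subunits rose and 0 fell, EIF3B with 415 and 378 CPM after puromycin, against 187 and 149 CPM untreated (log2 change 1.24 ± 0.16, adjusted p = 1.74e-06).

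Most mRNAs of mitotic proteins rose. Of 27 mitotic genes, 21 rose and 1 fell, the same numbers under all 3 scalings. PRC1, which bundles microtubules of the spindle midzone, had 256 and 209.6 CPM after puromycin, against 64.4 and 56.9 CPM untreated (log2 change 1.94 ± 0.14, adjusted p = 1.11e-09). BUB1, a kinase of the spindle checkpoint, rose by 1.66 ± 0.14 and CCNB1, the mitotic cyclin B1, by 1.62 ± 0.13. BIRC5, or survivin, was the member that fell, at -0.56, and MKI67, CENPF, CENPE and ASPM were not called. Of 26 replication factors, an added list, 19 rose and 2 fell, MCM7 of the replicative helicase by 1.78 and RRM1 of ribonucleotide reductase by 1.65, while GINS2 stood at -0.78. Of 22 nucleoporins, an added list, 18 rose and 1 fell, NUP107 by 1.75 and NUP153 at -0.43. Among 16 SR proteins and their kinases, which act in splicing, 11 rose and 1 fell, with SRSF7 at 222 and 229 CPM after puromycin, against 81.7 and 90.7 CPM untreated (log2 change 1.39 ± 0.14, adjusted p = 1.14e-07). Of 10 factors of nonsense-mediated decay, which depends on translation, 5 rose and 1 fell, UPF3B with 45.7 and 38.7 CPM after puromycin, against 13.7 and 13.4 CPM untreated (log2 change 1.64 ± 0.15, adjusted p = 2.14e-08) and UPF1, the helicase of the pathway, by 0.85 ± 0.14.

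The tagged protein and its partners were among the mRNAs that rose. RPAP3 had 59.3 and 51.95 CPM after puromycin, against 29.6 and 26.7 CPM untreated, a rise of 0.99 ± 0.13 (adjusted p = 3.32e-06). RUVBL1 had 188 and 163 CPM after puromycin, against 86.1 and 72.97 CPM untreated (log2 change 1.14 ± 0.16, adjusted p = 1.56e-05), and RUVBL2 had 315 and 269 CPM after puromycin, against 153 and 134 CPM untreated (log2 change 1.02 ± 0.14, adjusted p = 5.17e-06). In all 3 genes both puromycin libraries lay above both untreated ones. The RPAP3 call was lost in a fit of all 24 libraries, at adjusted p = 0.0974. Of 11 tested subunits of R2TP and its prefoldin-like module, 4 (36.4%) rose and 4 (36.4%) fell, beside 23.5% and 19.4% of all tested genes. Among them were DNAAF10 at 1.01, UXT at -0.60 and PDRG1 at -0.42. POLR2E, shared by all 3 nuclear RNA polymerases and bound by that module, had 161 and 139 CPM after puromycin, against 254 and 224 CPM untreated (log2 change -0.67 ± 0.13, adjusted p = 0.000305). In 36 RNA polymerase subunits and assembly factors 14 (38.9%) rose and 13 (36.1%) fell. POLR2B, the second largest subunit of RNA polymerase II, had 183 and 183 CPM after puromycin, against 66.5 and 59.02 CPM untreated (log2 change 1.54 ± 0.13, adjusted p = 8.86e-09), and the small subunits POLR2L and POLR2I stood at -0.92 ± 0.14 and -0.84 ± 0.12. In the chromatin remodellers INO80, SRCAP and TIP60, 11 of 29 (37.9%) rose, ACTR6 by 1.47 ± 0.16, and 7 (24.1%) fell. Of 9 PIKK kinases and their TTT co-chaperone, TTI1 and TTI2 rose by 0.94 ± 0.14 and 1.33 ± 0.18, while SMG1, a large kinase of nonsense-mediated decay, had 54.4 and 50.01 CPM after puromycin, against 72.6 and 78.6 CPM untreated (log2 change -0.53 ± 0.12, adjusted p = 0.00121), a call lost in the fit of all 24 libraries (adjusted p = 0.0563).

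mRNAs of ribosomal proteins took a smaller share. These short mRNAs begin with a terminal oligopyrimidine tract and are translated under control of mTOR. Of 80 tested, 39 fell and 0 rose, with a median of -0.37 and the highest member at 0.05. With upper-quartile scaling 60 fell, with total counts 57, and in a fit of all 24 libraries 2. Without untreated library B, puromycin library B or untreated library A, 5, 9 and 24 fell, at medians of -0.31, -0.29 and -0.38. RPL35 had 1520.5 and 1326 CPM after puromycin, against 2175 and 2267 CPM untreated (log2 change -0.64 ± 0.14, adjusted p = 0.00092), RPS15 had 963 and 929.9 CPM after puromycin, against 1464 and 1404 CPM untreated (log2 change -0.60 ± 0.14, adjusted p = 0.00128) and RPS21 had 586 and 532 CPM after puromycin, against 795 and 880.5 CPM untreated (log2 change -0.58 ± 0.14, adjusted p = 0.00156). In each of these genes both puromycin libraries lay below both untreated ones. Their summed level was 128940.0 and 114060.0 CPM after puromycin, against 147430.0 and 152120.0 CPM untreated. Many ribosomal protein genes have processed pseudogenes, so single values are less certain than the list. Of 20 other mRNAs with such a tract, 4 (20.0%) fell and 1 (5.0%) rose, beside 19.4% and 23.5% of all tested genes, and 1 fell without puromycin library B or untreated library A. PABPC1, which binds poly(A) tails, had 5562 and 4936 CPM after puromycin, against 9451 and 8245 CPM untreated (log2 change -0.75 ± 0.18, adjusted p = 0.0017). NPM1, the nucleolar protein nucleophosmin, had 3009 and 2575 CPM after puromycin, against 1539 and 1333 CPM untreated (log2 change 0.96 ± 0.17, adjusted p = 0.000148). The elongation factors EEF1A1 and EEF2, at -0.08 and 0.06, were not called.

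Most histone mRNAs fell. Of 45 tested core and linker histone genes, 30 fell and 0 rose, with a median of -0.49 (35 and 33 fell with upper-quartile and total-count scaling, 16 in the fit of all 24 libraries and 14 without puromycin library B). H4C3 (gene chr6:26103933-26104337) had 230.2 and 197 CPM after puromycin, against 377 and 353 CPM untreated (log2 change -0.77 ± 0.14, adjusted p = 9.19e-05). H2AC14 had 135 and 105 CPM after puromycin, against 213 and 204 CPM untreated (log2 change -0.79 ± 0.14, adjusted p = 9.6e-05), and H2BC17 had 134 and 110.2 CPM after puromycin, against 200.3 and 198 CPM untreated (log2 change -0.70 ± 0.13, adjusted p = 0.000169). Genes of 1 histone type are nearly identical, so reads could have been split among them.

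Long non-coding RNAs were called lower more often than higher. Of 1235 tested, 247 (20%) fell and 3 (0.243%) rose, with a median log2 change of -0.60. Of 13181 protein-coding genes 2606 (19.8%) fell and 3564 (27%) rose, with a median of 0.02. Without 1 of the 4 uncoupled libraries 125 to 174 long non-coding RNAs fell and 1 to 4 rose, the fewest lower without untreated library B. Of the 197 long non-coding RNAs at 5 CPM or more 134 fell and 0 rose, with a median of -0.59. Of 10300 protein-coding genes at that level 2492 fell and 3407 rose, with a median of 0.05. Upper-quartile scaling gave medians of -0.77 and -0.15 over all tested genes of the classes. NORAD, an abundant cytoplasmic RNA, had 432 and 399 CPM after puromycin, against 1007 and 958 CPM untreated (log2 change -1.24 ± 0.15, adjusted p = 6.87e-07). Its gene lies at chr20:36045618-36050960. OIP5-AS1, also called cyrano, had 75.4 and 77.1 CPM after puromycin, against 129 and 126 CPM untreated (log2 change -0.75 ± 0.14, adjusted p = 0.000141). The 2 groups did not overlap in either RNA. Of 26 host transcripts of snoRNAs, whose spliced product is short and often degraded through nonsense-mediated decay, 19 fell and 0 rose, with a median of -0.51. Without untreated library B 6 fell, and without puromycin library A 11. SNHG10 had 5.16 and 5.28 CPM after puromycin, against 10.8 and 10.6 CPM untreated (log2 change -1.03 ± 0.19, adjusted p = 0.000188), SNHG15 fell by 0.78 and SNHG3 by 0.72 on the log2 scale. Of 423 transcribed pseudogenes, 67 (15.8%) fell and 6 (1.42%) rose, beside 19.4% and 23.5% of all tested genes.

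**Figure D3:**
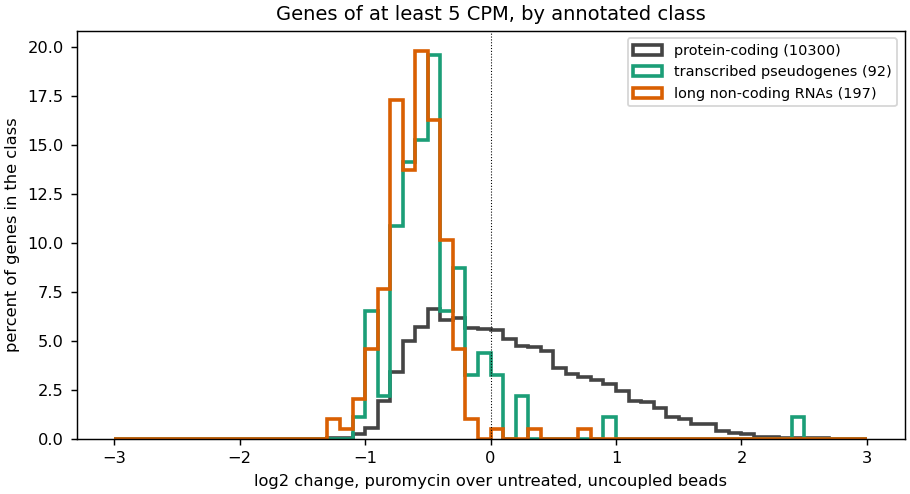
Distribution of the log2 change after puromycin on uncoupled beads of the RPAP3 line for tested genes of at least 5 CPM, as the percent of the class in each bin, for protein-coding genes (black, 10300), transcribed pseudogenes (green, 92) and long non-coding RNAs (orange, 197). Long non-coding RNAs gather near -0.59, and protein-coding genes run from about -1 to beyond 2.

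Small structured RNAs gave few calls. RN7SK, which holds the kinase P-TEFb and had the highest mean CPM over the 4 libraries, stood at 20740.0 and 12582 CPM after puromycin, against 22593 and 26512 CPM untreated and was not called (log2 change -0.56 ± 0.24, adjusted p = 0.0776). RMRP, the RNA of the RNase MRP enzyme, had 4744 and 3331 CPM after puromycin, against 2592 and 2999.8 CPM untreated (log2 change 0.53 ± 0.17, adjusted p = 0.0149), and the call was lost with upper-quartile scaling (adjusted p = 0.0815). Without puromycin library A or without untreated library A it was also lost, at adjusted p = 0.344 and 0.104. TERC, the telomerase RNA, stood at -0.51 ± 0.14, lost without puromycin library B (adjusted p = 0.0683) or untreated library B (adjusted p = 0.0712). Of 74 box C/D snoRNAs 3 fell, of 63 box H/ACA snoRNAs 3 fell and 1 rose, and the 17 scaRNAs, from -3.22 to 0.39, did not pass the test. All 6 that fell, SNORD24, SNORD48, SNORD51, SNORA24, SNORA3A and SNORA71B, lost their call without 1 or more of the 4 uncoupled libraries. SNORD51 had 33 counts in untreated library B and 0 in the other 3. SNORA104, an H/ACA snoRNA, was the one that rose, with 4.58 and 3.46 CPM after puromycin, against 0.652 and 0.340 CPM untreated.

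Genes of transcriptional stress programmes were called in both directions. Against 23.5% of all tested genes higher and 19.4% lower, the shares were 14.3% and 7.14% for immediate early genes, 31.8% and 9.09% for ATF4 targets, 28.6% and 19.0% for p53 targets and 33.3% and 11.1% for NF-kB targets. Of 42 immediate early genes, 6 rose and 3 fell, with KLF2 and KLF10 at 0.71 ± 0.16 and 0.69 ± 0.16 and JUND at -0.76 ± 0.13, while upper-quartile scaling gave 2 higher and 8 lower and the replicate block 7 higher and 11 lower. Their median of -0.17 became 0.087 without untreated library B, with 3 higher and 1 lower, and without untreated library A 3 were higher and 5 lower. Of 22 targets of ATF4, the factor of the integrated stress response, 7 rose and 2 fell, with a median of 0.33. The counts were 6 and 5 with upper-quartile scaling, 10 and 0 without puromycin library B, 9 and 0 without untreated library A, and 6 and 3, at a median of -0.034, without puromycin library A. Those that rose most encode enzymes and carriers of amino acid metabolism, PHGDH with 334 and 246 CPM after puromycin, against 88.6 and 67.2 CPM untreated (log2 change 1.90 ± 0.18, adjusted p = 2.36e-07) and SLC3A2 with 328 and 255 CPM after puromycin, against 85.8 and 81.2 CPM untreated (log2 change 1.81 ± 0.17, adjusted p = 1.07e-07). ATF4 itself fell by 0.53 on the log2 scale, and its targets TRIB3, CHAC1 and DDIT3 were not called. Of 21 targets of p53, 6 rose and 4 fell. GDF15, a secreted cytokine, had 213 and 186 CPM after puromycin, against 52.8 and 46.3 CPM untreated (log2 change 2.01 ± 0.13, adjusted p = 5.72e-10), and the inhibitor MDM2 stood at -0.38. Of 18 targets of NF-kB, 6 rose and 2 fell, ICAM1, an adhesion molecule, with 19.4 and 15.2 CPM after puromycin, against 5.87 and 5.57 CPM untreated (log2 change 1.60 ± 0.18, adjusted p = 3.69e-07), while the inhibitor NFKBIA stood at 0.00 and was not called.

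Few mRNAs of very long proteins were called. Of 41 tested, 3 rose and 3 fell, with a median of -0.03. Without untreated library A the counts were 3 and 7, without untreated library B 5 and 0, at a median of 0.20, and without puromycin library A 3 and 0. FLNA, the actin crosslinker filamin A, had 196 and 201 CPM after puromycin, against 114 and 139 CPM untreated (log2 change 0.65 ± 0.14, adjusted p = 0.000811), and MYH14, a non-muscle myosin, rose by 0.52 ± 0.13. Both calls were lost in the fit of all 24 libraries, at adjusted p = 0.216 for FLNA and 0.155 for MYH14. Of 387 ZNF zinc finger genes 75 (19.4%) fell and 27 (6.98%) rose, beside 19.4% and 23.5% of all tested genes. Without 1 of the 4 uncoupled libraries 37 to 51 fell and 12 to 21 rose, the fewest lower without untreated library A and the fewest higher without puromycin library A. ZNF664 had 211 and 188 CPM after puromycin, against 399 and 376 CPM untreated (log2 change -0.96 ± 0.13, adjusted p = 4.97e-06), and ZNF622, a factor of 60S ribosome maturation, rose by 1.40 ± 0.16 (adjusted p = 3.86e-07). Other decreases among the 15 largest were those of CYB5RL, a cytochrome b5 reductase relative, with 3.82 and 3.42 CPM after puromycin, against 10.2 and 11.2 CPM untreated (log2 change -1.56 ± 0.26, adjusted p = 4.89e-05), and BICDL1, an adaptor of dynein, with 11.2 and 8.21 CPM after puromycin, against 22.3 and 24.4 CPM untreated (log2 change -1.26 ± 0.18, adjusted p = 5.42e-06). CITED4, a cofactor of CBP and p300, stood at -1.16 ± 0.42 and lost its call without puromycin library A (adjusted p = 0.118), puromycin library B (0.219) or untreated library B (0.229). RPSA2 stood at -1.09 and could have shared reads with the ribosomal protein gene RPSA. DOC2B, SYT13 and RIMS3, proteins of regulated secretion, stood at -1.19 ± 0.15, -1.30 ± 0.26 and -1.21 ± 0.20. NIPBL-DT and BAIAP2-DT, divergent non-coding transcripts, stood at -1.24 ± 0.23 and -1.12 ± 0.19. TLNRD1, DUSP23, PPP1R26, FAM78A and LOC101929479 completed the 15 largest decreases, from -1.19 for FAM78A to -1.07 for PPP1R26. FAM78A lost its call without puromycin library B, at adjusted p = 0.0568.

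Markers of the labelled cell type were present in part. Of 22 epithelial markers, 13 were tested, and KRT8 had 1921 and 1608 CPM after puromycin, against 648 and 502 CPM untreated. Their summed level was 5241 and 4375 CPM after puromycin, against 2018 and 1697 CPM untreated, and 10 rose and 1 fell. Of 19 markers of blood, stromal and liver cells, 7 were tested, at a summed 21.2 and 26.6 CPM after puromycin and 15.5 and 21.2 CPM untreated. CD3E, PTPRC and ALB were not among the tested ones.

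On GFP-binding beads of the same line, in 4 other libraries, puromycin changed much the same genes. Whether both bead types received the same lysates is not given in the sources used here. There 39.6% of genes were called in the same fit, 3363 (22.1%) higher and 2664 (17.5%) lower. Of these, 2995 also rose on uncoupled beads, which is 83.7% of the higher calls on uncoupled and 89.1% of those on GFP beads. In the lower direction 2043 were shared, 69.1% of the calls on uncoupled and 76.7% of those on GFP beads, and 15 genes were called in opposite directions. Across the 10632 genes of at least 5 CPM the changes on the 2 bead types correlated at 0.911 (Pearson) and 0.925 (Spearman), as a description over genes that share libraries. Across all 15202 genes the values were 0.612 and 0.743. PDIA4 changed by 2.71 on uncoupled and 2.64 on GFP beads, PSAP by 2.61 and 2.81, and NORAD by -1.24 and -1.16.

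The change on uncoupled beads exceeded that on GFP beads for 37 genes (0.243%) and was below it for 1 (0.00658%), tested as a difference of changes. The leading genes were mRNAs that GFP beads had recovered at far higher levels from untreated cells. POLR2A stood at 207 and 209 CPM after puromycin, against 138 and 156 CPM untreated on uncoupled beads, with 205 and 231 CPM after puromycin and 4774 and 7176 CPM untreated on GFP beads. The untreated GFP libraries lay far above all the others, which lay close together. The difference of changes was 5.27 for POLR2A, the largest subunit of RNA polymerase II (adjusted p = 1.6e-11). It was 5.71 for POLR1A, the largest subunit of RNA polymerase I, 4.96 for SRCAP, the ATPase of its remodeller, and 4.74 for GOLGA4, a golgin. PRPF8, the core protein of the U5 snRNP, differed by 4.74, a call lost without any 1 of the 4 uncoupled libraries (adjusted p = 0.164 to 0.302). On uncoupled beads POLR2A stood at 0.50, POLR1A at 0.14, SRCAP at -0.59, GOLGA4 at 0.12 and PRPF8 at 0.94, of which POLR2A was called higher and SRCAP lower. PRPF8 was also called higher without the low-count filter (adjusted p = 3.61e-05), with DESeq2 (0.0394), with only the 4 uncoupled libraries (2.23e-06) and with the replicate block (0.00387), and SRCAP lost its call with all 24 libraries (0.0908). With upper-quartile scaling POLR1A and GOLGA4 turned to -0.039 and -0.052. The call for POLR2A there was lost without puromycin library A (adjusted p = 0.0836), puromycin library B (0.0818) or untreated library A (0.113), and with upper-quartile scaling (0.109), total-count scaling (0.0579) or all 24 libraries (0.533). RPAP3 mRNA itself changed by 0.99 on uncoupled and -2.37 on GFP beads, a difference of 3.36 (adjusted p = 1.28e-10). On uncoupled beads 7 (43.8%) rose and 1 (6.25%) fell of the 16 mRNAs that led the recovery with RPAP3 in earlier results of these data. Over all tested genes the shares were 23.5% and 19.4%. DSP, the desmosomal protein desmoplakin, was the gene with the smaller change on uncoupled beads, at 152 and 119 CPM after puromycin, against 104 and 124 CPM untreated. Its difference of -1.61 lost its call without puromycin library B (adjusted p = 0.131) or without either untreated GFP library (0.748 and 0.317).

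**Figure D4:**
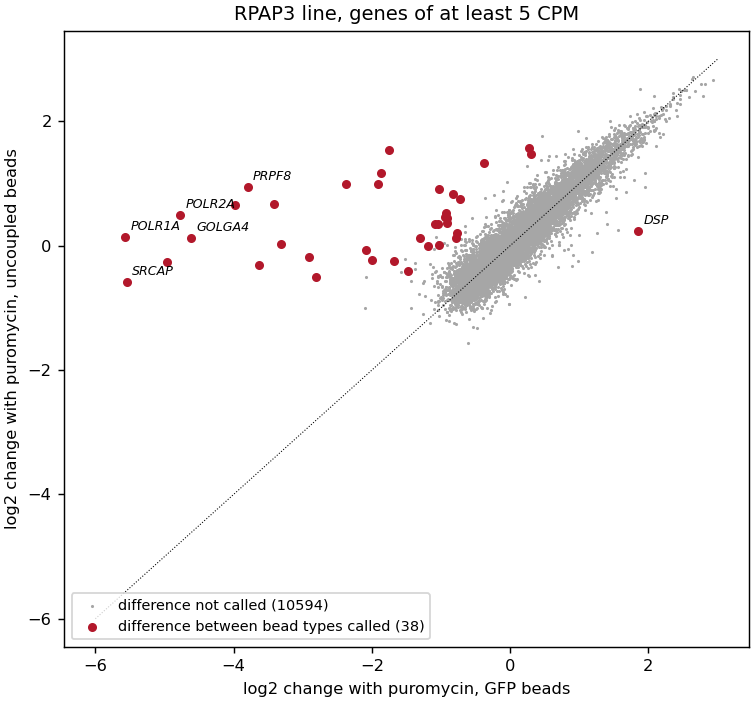
Log2 change after puromycin on uncoupled beads against that on GFP-binding beads of the RPAP3 line for the 10632 genes of at least 5 CPM. The 38 genes whose changes differed at an adjusted p under 0.05 are marked, and all but DSP lie on the side where the change on uncoupled beads was greater.

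The same treatment and the same kind of beads were also used in the RUVBL1 line. One of its untreated libraries, replicate 2, stood apart, with 10974407 counts and 14.6% of reads in its 10 leading genes, against 18037891 to 22507934 counts and 8.98% to 11.7% in the other 3. In a fit of all 24 libraries (16695 genes), 20 genes (0.120%) rose and 3 (0.0180%) fell in the RUVBL1 line, and 2135 had an unadjusted p under 0.05. In the same fit 2238 (13.4%) rose and 1818 (10.9%) fell in the RPAP3 line. Without the library that stood apart 0 genes were called in the RUVBL1 line by edgeR, with 1702 at an unadjusted p under 0.05. Without the other untreated library 311 rose and 148 fell, and without either puromycin library 0 were called, with 909 and 1758 at an unadjusted p under 0.05. DESeq2 on all libraries called 84 higher and 50 lower. Depth was lower in that line than in the RPAP3 line, and a smaller number of calls does not by itself show a smaller change. The difference of changes between the lines was therefore tested itself. It was called for 527 genes (3.16%), 446 (2.67%) with the higher change in the RPAP3 line and 81 (0.485%) with the lower one. Without the library that stood apart it was called for 1142 and 497 genes, and without the other untreated library of the RUVBL1 line for 67 and 9.

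Whether the directions matched between lines also depended on that library. Of the genes that rose in the RPAP3 line 81.4% had a positive change in the RUVBL1 line, against 46.1% of all genes. Without the untreated replicate 2 the share was 58.9% against 48.5%, and without replicate 1 it was 91.7% against 48.9%. Of the genes that fell, 74.4% were negative in the RUVBL1 line against 53.4% of all, 46.7% against 47.8% without replicate 2 and 79.6% against 48.3% without replicate 1. Over genes of at least 5 CPM the Spearman correlation of the changes across genes was 0.456 with all libraries, 0.0611 without replicate 2 and 0.607 without replicate 1.

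Single genes show the contrast. HSPA5 had 794 and 683 CPM after puromycin, against 173 and 165 CPM untreated in the RPAP3 line in this fit. In the RUVBL1 line it had 285 and 301 CPM after puromycin, against 365 and 267 CPM untreated. The groups were apart in the RPAP3 line and overlapped in the RUVBL1 line, and the changes differed by 2.24 ± 0.29 (adjusted p = 0.000174). HSP90AA1 had 3495 and 3432 CPM after puromycin, against 4221 and 2239 CPM untreated in the RUVBL1 line, and differed by 1.90 (adjusted p = 0.00727). MAGED1, a protein of the MAGE family, stood at 1.99 in the RPAP3 line and -0.14 in the RUVBL1 line. The differences for HSPA5 and MAGED1 stayed called without each of the 8 uncoupled libraries in turn. That for HSP90AA1 was not refitted without single libraries. PDIA4 was also called higher in the RUVBL1 line, at 792 and 688 CPM after puromycin, against 353 and 213 CPM untreated, a log2 change of 1.39 (adjusted p = 0.0139), beside 2.62 in the RPAP3 line in that fit. The PDIA4 call in the RUVBL1 line was lost without untreated replicate 2 of that line, and without either of its puromycin libraries. The differences also called for RPAP2, PTPRN2, H4C12, CENPP, H3C1 and MRPL21 were each lost without 1 or more of the 8 libraries.

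List medians in this fit are given beside those without each untreated RUVBL1 library. Lysosomal genes had a median log2 change of 1.55 in the RPAP3 line and 0.40 in the RUVBL1 line (0.30 without untreated replicate 2, 0.64 without replicate 1), and ER chaperones 1.26 and 0.35 (0.36 and 0.37). The sign was therefore that of the RPAP3 line in each setting. Heat shock proteins had 1.01 in the RPAP3 line and 0.13 in the RUVBL1 line, which became -0.015 without replicate 2 and 0.38 without replicate 1. Ribosomal proteins had -0.46 in the RPAP3 line and -0.13 in the RUVBL1 line, with 0.17 without replicate 2 and -0.36 without replicate 1. The sign of these lists thus turned with 1 library. Respiratory chain subunits had -0.60 in the RPAP3 line and 0.18 in the RUVBL1 line (0.30 without replicate 2, 0.023 without replicate 1). Histones had -0.59 in the RPAP3 line and 0.25 in the RUVBL1 line (0.14 and 0.31). The test of the difference itself called 2.67% of all genes higher in the RPAP3 line and 0.485% lower. Of the 45 histone genes tested in the RPAP3 line it called 6, all lower there. It called 14 of the 30 lysosomal genes and 6 of the 20 ER chaperones, all higher there. Of the 82 respiratory chain subunits it called 2, SDHA and UQCRC2, both higher in the RPAP3 line, and 0 lower. These 2 went against the direction of the list medians. Over all genes the calls with a lower change in the RPAP3 line numbered 1 to 22 without any 1 library but the untreated replicate 2, against 81 with all of them, and H3C1 and H4C12 were among the histone calls lost.

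**Figure D5:**
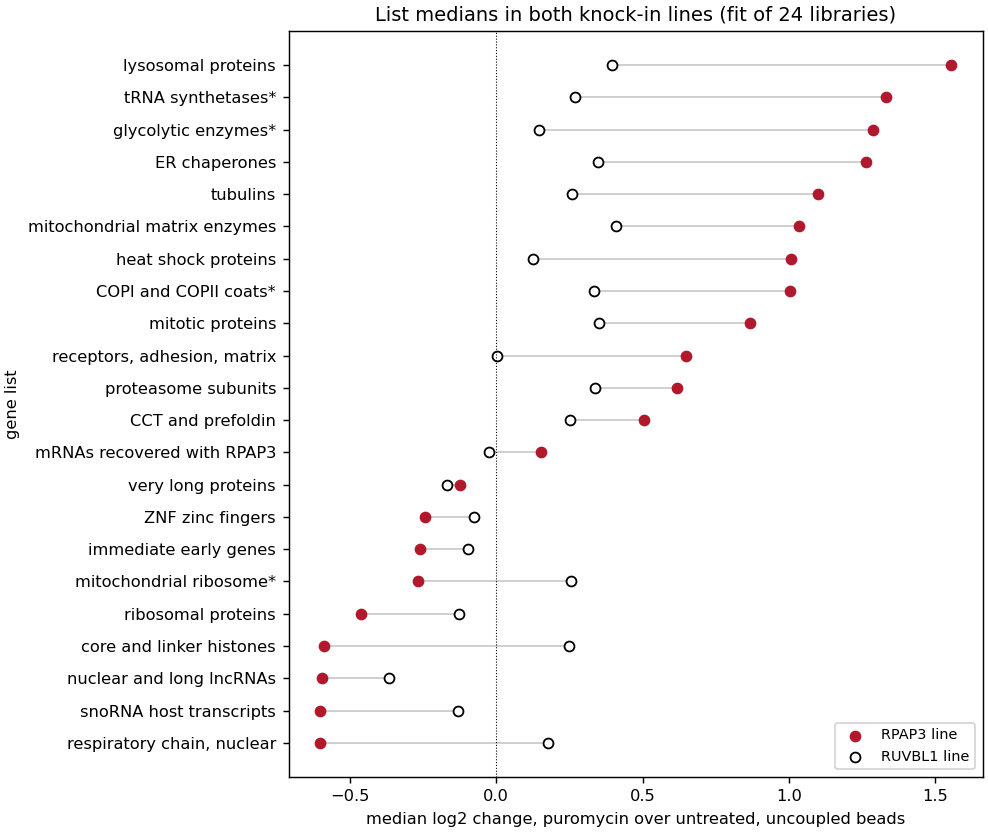
Median log2 change after puromycin on uncoupled beads for 22 gene lists in the RPAP3 line (filled) and the RUVBL1 line (open), both from the fit of all 24 libraries. Lists with an asterisk were added after the values were seen. Lysosomal genes and ER chaperones are right of 0 in both lines, and respiratory chain subunits and histones are on opposite sides.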

How the data were processed

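The authors deposited raw read counts per gene in 1 table of 28307 genes and 24 libraries, from HCT116 lines carrying GFP on RPAP3 or RUVBL1. Per the labels' protocols, RNA from GFP-Trap or agarose control beads was extracted with an RNeasy kit and libraries were made from it by the SMART-Seq Stranded method. TopHat2 2.1.1 and featureCounts 2.0.3 are named for hg38, beside MultiQC 1.12, bcl2fastq 2.20.0.422 and FastQC 0.11.9, per the submitters' processing notes. The strand setting, the annotation release and the treatment of reads with several matches are not given in the sources used here, so reads of overlapping, antisense and near-identical genes may have been shared.

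From these counts, genes were filtered with filterByExpr, scaled with TMM and fitted in edgeR 4.0.16 by quasi-likelihood (limma 3.58.1, R 4.3.3) over the 8 libraries of the RPAP3 line, in 4 groups of 2, or over all 24 for the comparison of lines. The 24 include the libraries given CB-6644. P-values were adjusted by Benjamini-Hochberg over all genes tested and called under 0.05. DESeq2 1.42.0, other scalings, no filter, other sets of libraries, the replicate letter as a block and leaving out each library were the alternatives. The steps were tested on simulated data. Of the 27790 genes with an ID, 27757 were in the RefSeq gene table of GRCh38.p14, the source of biotypes and coordinates, and 233 of the 517 without an ID were named through it. Members and gene lists were chosen with earlier results of these data known, and 8 of 46 lists after the present values were seen.

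Named are RPAP3, RUVBL1 and RUVBL2, the 15 called genes of at least 5 CPM with the largest change in each direction whose groups did not overlap, from each list the 4 members, or fewer, that had the lowest p, and up to 5 genes a direction in each difference of changes. Genes named outside that rule were chosen after their values were seen, and some genes that the rule names are not reported here. A planned division by protein length was not run, since no protein table was used here.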

Additional observations from a re-analysis of the deposited data

Results flagged for a closer look

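Each result here is a gene whose change after puromycin differed, by a test of the difference itself at an adjusted p under 0.05, between the bead types of the RPAP3 line or between the lines on uncoupled beads. Values are differences of log2 changes. No group had enough libraries for a search for single outlying libraries.

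Between uncoupled and GFP-binding beads, the difference was 4.74 for PRPF8, 4.74 for GOLGA4, 5.27 for POLR2A, 4.96 for SRCAP and 5.71 for POLR1A. It was 3.36 for RPAP3, 3.29 for POLR2B and 2.91 for CHERP, and -1.61 for DSP, an mRNA that was raised by puromycin on GFP beads, at 650.1 and 1043 CPM, against 221 and 248 CPM untreated.

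Between the RPAP3 and RUVBL1 lines, the difference in lysosomal and secreted proteins was 1.98 for GAA, 1.95 for PSAP, 1.81 for TPP1, 1.70 for GRN, 1.95 for LGALS3BP, 1.23 for CLU and 1.90 for GDF15. For ER proteins it was 2.24 for HSPA5, 1.99 for CLGN, 1.71 for HSP90B1, 1.61 for PDIA3, 1.58 for RPN2 and 1.23 for PDIA4. For membrane proteins it was 1.80 for SUSD2, 1.75 for CDH1, 1.64 for SLC3A2, 1.36 for APP and 1.18 for EPCAM. For cytosolic and mitochondrial chaperones and tubulins it was 1.90 for HSP90AA1, 1.47 for STIP1, 1.38 for HSPD1, 1.17 for CCT2, 1.32 for TUBB4B and 1.11 for TUBA1C. For mitochondrial and metabolic enzymes it was 1.40 for PHGDH, 1.26 for SDHA, 1.12 for UQCRC2 and 1.10 for PCCB. For the proteasome and factors of translation, decay and splicing it was 1.65 for PSMD1, 1.28 for PSMC2, 1.26 for UPF1, 1.21 for EIF3B and 1.15 for SRSF7. For keratins, the cytoskeleton and mitosis it was 1.71 for CCNB1, 1.36 for KRT8, 1.20 for KRT19, 1.21 for MSN and 1.11 for PRC1. For assembly factors, regulators and others it was 2.57 for RPAP2, 2.12 for MAGED1, 1.71 for ACTR6, 1.36 for NFKB2 and 1.18 for TTI2. A lower change in the RPAP3 line was called at -1.63 for PTPRN2, -1.56 for H4C12, -1.55 for CENPP, -1.49 for H3C1, -1.49 for MRPL21, -1.29 for H4C3, -1.24 for BICDL1 and -0.98 for H4C4. The fitted value of 8.53 for the snoRNA SNORA104 is no bound, since in the RUVBL1 line it had 0 and 0 counts after puromycin, against 0 and 6 counts untreated.

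The number of genes in this difference depended on the untreated library of the RUVBL1 line that stood apart, with 527 called in all libraries, 1639 without it and 76 without the other untreated library. Single values were refitted without that library only for the leading genes of this difference, up to 5 in each direction.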

How the results depend on the processing

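The 6532 calls after puromycin on uncoupled beads (3577 higher, 2955 lower) became 7172 with upper-quartile scaling (2862 and 4310), 6631 with total-count scaling (3154 and 3477), 6452 without the low-count filter, 6464 with DESeq2 and 6947 with only the 4 uncoupled libraries. In the fit of all 24 libraries they fell to 4056 (2238 and 1818), of which shared calls were 61.7% of the 6532. Leaving out single libraries gave 4831 to 5318 calls, 2698 to 3291 higher and 1850 to 2133 lower, the fewest lower without puromycin library B. Shared calls with opposite sign numbered 0 in every alternative run. With the replicate letter as a block, 6804 genes were called (3690 and 3114), 6507 of them shared. The labels do not say that letters pair libraries, and deviations of the same letter correlated at 0.139 between puromycin and untreated libraries on uncoupled beads, 0.159 on GFP beads and -0.117 to 0.0211 across bead types.

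The difference between bead types, 38 genes (37 and 1), was 38 with upper-quartile scaling (36 and 2), 36 with total counts (34 and 2), 64 without the filter (52 and 12), 52 with DESeq2 (46 and 6), 16 with all 24 libraries (16 and 0) and 55 with the block (47 and 8). Leaving out single libraries gave 31 to 63 (30 to 53 higher, 0 to 12 lower). The difference between lines, 527 genes (446 and 81), was 720 with upper-quartile scaling (578 and 142), 726 with total counts (576 and 150), 798 without the filter (604 and 194) and 1328 with DESeq2 (1069 and 259). Leaving out single libraries gave 70 to 1639 (67 to 1142 higher, 1 to 497 lower). The cause of these moves was not tested.

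The changes that turned sign were not called where they turned. With upper-quartile scaling these were GOLGA4 at -0.052 and POLR1A at -0.039. On leaving out single libraries, SCARNA10 ranged from -0.63 to 0.027, SCARNA4 from -2.41 to 0.18, SCARNA5 from -1.42 to 0.10 and SNORD51 from -7.59 to 0. Depth limits the genes under 1 CPM, of which 1.2% and 1.7% were called.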
